A study of Mus musculus with 2 samples.

Results

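Steroid hormones enter cells, where HSP90 chaperones hold their receptors ready to bind them, and the hormone-bound complexes switch on genes that carry hormone response elements. In the prostate, androgen-regulated genes define the secretory luminal epithelium, while fibroblasts and smooth muscle of the gland also respond to androgens. Several of these genes are also switched on by the glucocorticoid receptor, which binds closely similar DNA elements. Described here are 7 genes, of 28000 features counted, that are widely used as androgen-regulated genes: Fkbp5, Zbtb16 and Tsc22d3, which respond to androgens and glucocorticoids; Mme and Tmprss2, which encode membrane proteases; Steap4, a metalloreductase; and Ndrg1, a growth-arrest and stress gene. The genes were taken by name in both libraries.

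The study addressed how HGF, MET and Wnt signalling act together in prostate cancers that no longer depend on androgens. DoubleTg was hHGFtg:H11 hMET/+:PB Cre4, in which human HGF is made throughout the body. Human MET lies behind a CAG promoter and a stop cassette, which Cre, made under the probasin promoter, removes in prostate epithelium. TripleTg carried these alleles and Ctnnb1 L(Ex3)/+, from which Cre removes exon 3 and leaves a stabilised β-catenin. Both groups therefore carry the HGF and MET transgenes and the Cre, although human MET RNA in luminal-like cells was 18.7-fold lower in TripleTg. The probasin promoter, which drives Cre and not MET, is itself androgen-dependent. The labels call the DoubleTg tissue adenocarcinoma and the TripleTg tissue carcinoma, and the age of the sequenced mice is not given in the sources used here. Tissue was digested in medium that contained dihydrotestosterone, and each genotype was 1 library of single cells sequenced from the 3′ end, so that no difference below has a replicate check.

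After cells with more than 200 and fewer than 7000 genes and under 15% mitochondrial UMIs were kept, DoubleTg had 10598 cells and TripleTg 9492 cells, with a median of 16761 and 20097 UMIs (unique molecular identifiers, a count of captured RNA molecules) per cell. The libraries shared 30 cell barcodes. Clusters were named from marker genes, without the 7 genes, and a level is the UMIs of a gene per 1000000 UMIs (CPM) of all cells of a class. Luminal-like cells numbered 4942 in DoubleTg and 4767 in TripleTg, and basal-like cells numbered 1864 and 858. Seminal vesicle-like cells, from the gland that adjoins the prostate, numbered 126 and 588, fibroblast-like cells 712 and 639, and smooth muscle-like cells 65 and 101. In these and the endothelial-like and macrophage-like classes, the median marker of the class list was found in 53.2% (DoubleTg seminal vesicle-like) to 98.7% (TripleTg luminal-like) of cells. In DoubleTg, 1611 cells and in TripleTg 1235 cells were in shallow or mixed clusters that were left unnamed. Brackets after a log2 ratio of TripleTg over DoubleTg hold its exact 95% binomial interval, which covers counting error only and not the difference between animals.

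RefSeq promoter windows (GRCm38.p6, from 250 bases before to 50 bases after a start site) were found for 5 of the 7 genes, 9 windows in all. Each was searched on both strands for the palindromic element through which androgens and glucocorticoids act, AGAACA followed after any 3 bases by TGTTCT, and for its arm AGAACA alone, whose reverse complement is TGTTCT. No window held the whole element, which 0.00913% of 32851 windows of the same length held. The arm was in 1 of the 9 windows, against 19% of all windows, and that window belongs to Tsc22d3. Its sequence and that of the Fkbp5 window, which held no arm, are shown because both genes are standard readouts of hormone receptors and are followed class by class. Capitals mark the arm, which starts at position −185 from the start site. The Tsc22d3 window lies on the minus strand at chrX:140600473-140600772 and the Fkbp5 window on the minus strand at chr17:28486100-28486399.
Tsc22d3: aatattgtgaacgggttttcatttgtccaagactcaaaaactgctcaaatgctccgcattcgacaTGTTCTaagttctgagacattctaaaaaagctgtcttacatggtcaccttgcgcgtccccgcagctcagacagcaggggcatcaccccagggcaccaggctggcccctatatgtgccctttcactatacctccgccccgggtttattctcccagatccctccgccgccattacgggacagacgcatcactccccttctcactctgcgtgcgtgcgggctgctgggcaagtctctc
Fkbp5: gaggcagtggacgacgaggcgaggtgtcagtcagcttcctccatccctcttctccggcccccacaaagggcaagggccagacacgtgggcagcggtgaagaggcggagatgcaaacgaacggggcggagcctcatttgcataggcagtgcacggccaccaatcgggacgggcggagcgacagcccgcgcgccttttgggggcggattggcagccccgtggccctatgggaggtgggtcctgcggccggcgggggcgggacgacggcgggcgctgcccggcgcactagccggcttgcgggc
The windows give no information on distant enhancers, from which hormone receptors commonly act.

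In luminal-like cells, Mme and Fkbp5 were close to absent in TripleTg, Zbtb16 was lower, Tsc22d3 was lower by just under the limit used here, Steap4 was at the same low level, Tmprss2 was higher by less than the limit and Ndrg1 was higher. Of the 7 genes, 3 were lower and 1 was higher by at least 1 on the log2 scale, and 3 were neither. Among all 9053 genes with at least 5 CPM in either library, 12.7% were lower and 11.8% were higher by the same limit. Steap4 was under 5 CPM in both libraries, so the counts to set beside these shares are 3 lower and 1 higher of 6 genes. The median log2 ratio of the 7 genes was −0.99, against −0.01 for all genes of the class. The group therefore did not move as a block.

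**Figure D1:**
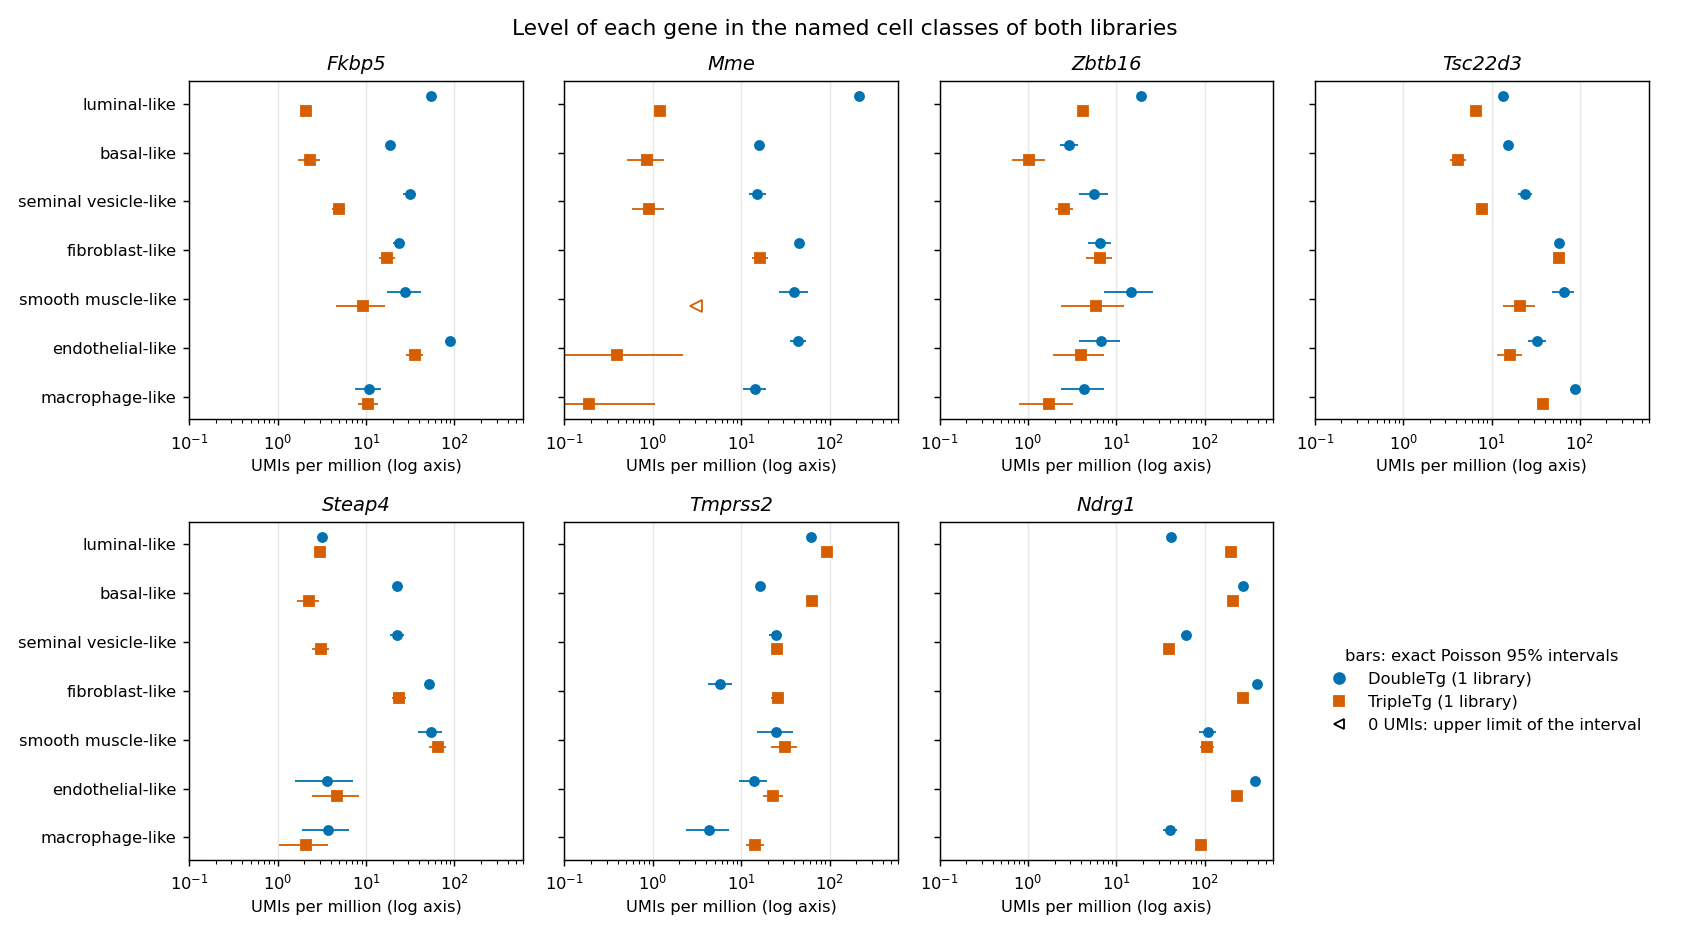
Level of each gene (CPM, log axis) in 7 cell classes of DoubleTg (circles) and TripleTg (squares), 1 library each, with exact Poisson 95% intervals; the open triangle is the upper limit of the interval for 0 UMIs. Fkbp5 lies at 2.11 CPM in TripleTg luminal-like cells and at 35.6 CPM in TripleTg endothelial-like cells, while Tsc22d3 lies at 58.2 and 57.7 CPM in the fibroblast-like cells of the 2 libraries.

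Mme (ENSMUSG00000027820, chr3:63241537-63386030, plus strand, mm10) encodes neprilysin, a membrane zinc peptidase that cleaves short signalling peptides. Luminal-like cells held 41550 Mme UMIs in DoubleTg, or 214 CPM, and 176 UMIs in TripleTg, or 1.21 CPM. The log2 ratio was −7.47 (−7.69 to −7.26), a 177-fold lower level. When each cell was thinned to 5000 UMIs, 56.7% of 4743 DoubleTg cells (55.3 to 58.2%, exact binomial) and 0.455% of 4618 TripleTg cells (0.282 to 0.694%) held a Mme UMI. Mme was the member with the widest gap between the libraries, and the remaining UMIs in TripleTg were uneven, since up to 16 of them came from a single cell.

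Fkbp5 (ENSMUSG00000024222, chr17:28399094-28517527, minus strand) encodes FKBP51, a co-chaperone of HSP90 in steroid receptor complexes and a standard readout of hormone action. Its level in luminal-like cells was 53.9 CPM in DoubleTg, from 10460 UMIs, and 2.11 CPM in TripleTg, from 308 UMIs. The log2 ratio was −4.67 (−4.84 to −4.51), or 25.5-fold lower. At 5000 UMIs per cell, 22.9% of DoubleTg and 0.996% of TripleTg luminal-like cells had a Fkbp5 UMI. The highest count in any TripleTg luminal-like cell was 3 UMIs, against 40 in DoubleTg.

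Zbtb16 (ENSMUSG00000066687, chr9:48654297-48836222, minus strand) encodes PLZF, a zinc-finger transcriptional repressor that is also known from innate-like T cells. It was measured at 18.8 CPM in DoubleTg and 4.18 CPM in TripleTg luminal-like cells, a log2 ratio of −2.17 (−2.30 to −2.05). Tsc22d3 (ENSMUSG00000031431, chrX:140539528-140600659, minus strand), which encodes the glucocorticoid-induced leucine zipper GILZ, was at 13.4 CPM in DoubleTg and 6.71 CPM in TripleTg, a log2 ratio of −0.99 (−1.10 to −0.89). Neither gene approached the near absence of Mme and Fkbp5. The Tsc22d3 value lay at the limit and crossed it when the classes were scaled with TMM factors of edgeR (−1.06).

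Tmprss2 (ENSMUSG00000000385, chr16:97564682-97611195, minus strand) encodes a transmembrane serine protease whose androgen-driven promoter is joined to ETS genes in many human prostate cancers. It was measured at 61.6 CPM in DoubleTg and 93.3 CPM in TripleTg luminal-like cells, a log2 ratio of 0.60 (0.56 to 0.64). Steap4 (ENSMUSG00000012428, chr5:7960457-7982213, plus strand), which encodes a membrane reductase of iron and copper, was sparse in both libraries, at 3.21 and 3.0 CPM with a log2 ratio of −0.09 (−0.27 to 0.08). Ndrg1 (ENSMUSG00000005125, chr15:66929318-66969640, minus strand), which is induced by hypoxia, differentiation and androgens, was at 41.6 CPM in DoubleTg and 198 CPM in TripleTg. Its log2 ratio of 2.25 (2.21 to 2.29) was a 4.76-fold higher level, and the share of luminal-like cells with a Ndrg1 UMI at 5000 UMIs was 15.9% in DoubleTg and 53.8% in TripleTg. Genes taken as readouts of the same hormone thus lay on opposite sides of the DoubleTg level.

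**Figure D2:**
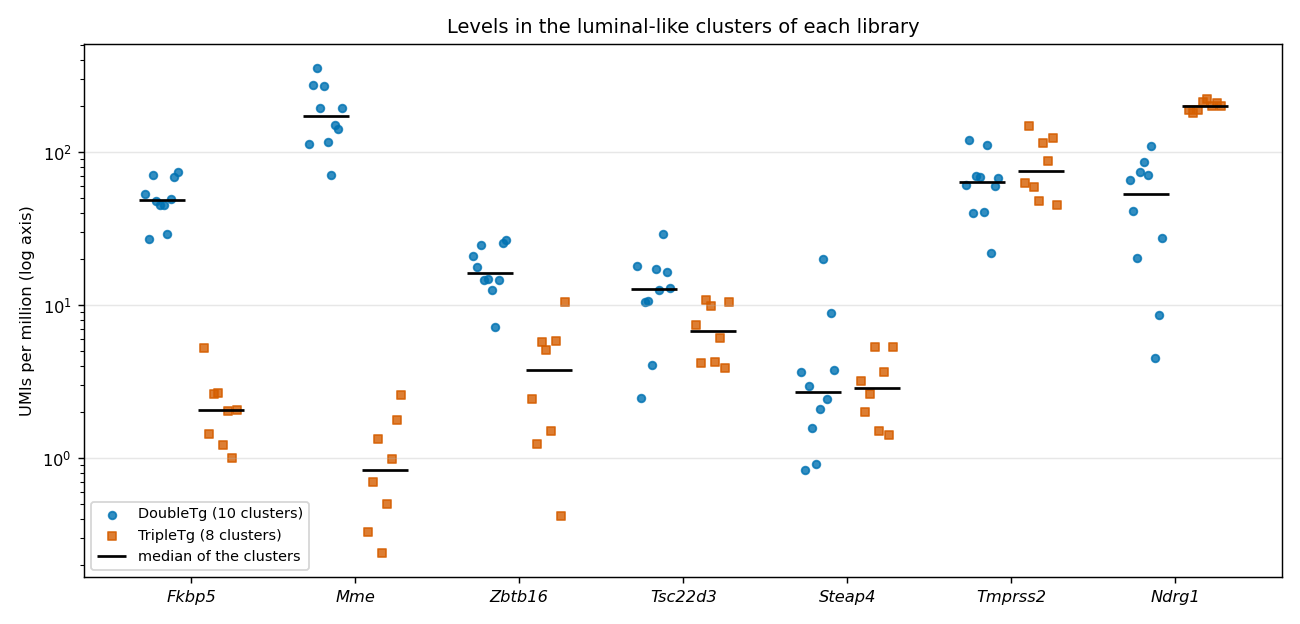
Levels of the 7 genes (CPM, log axis) in the 10 DoubleTg (circles) and 8 TripleTg (squares) luminal-like clusters; each point is 1 cluster and the bar is the median of the clusters. Fkbp5 and Mme lie lower in every TripleTg cluster than in any DoubleTg cluster and Ndrg1 lies higher, as do 6.04% and 6.98% of all genes, whereas Tmprss2, Steap4, Tsc22d3 and Zbtb16 overlap.

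Luminal-like cells formed 10 clusters in DoubleTg and 8 in TripleTg, and these show whether a gene differed in all subtypes or only through the mix of subtypes. Clusters of 1 library are not replicates, and the values are given as a description. Fkbp5 ranged from 26.9 to 73.6 CPM over the DoubleTg clusters and from 0.999 to 5.23 CPM over the TripleTg clusters. Mme ranged from 70.8 to 353 CPM and from 0.241 to 2.59 CPM, and Ndrg1 from 4.50 to 109 CPM and from 181 to 221 CPM. For these 3 genes every TripleTg luminal-like cluster lay outside the DoubleTg range, below it for Fkbp5 and Mme and above it for Ndrg1. Among all 9053 genes that reached 5 CPM, 6.04% lay below and 6.98% above in the same way. Zbtb16, at 7.17 to 26.6 CPM and 0.421 to 10.4 CPM, overlapped, as did Tsc22d3, at 2.46 to 29.1 CPM and 3.89 to 10.9 CPM, Tmprss2, at 22.0 to 119 CPM and 45.4 to 148 CPM, and Steap4, at 0.836 to 19.9 CPM and 1.42 to 5.30 CPM.

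The members followed different subtypes in DoubleTg. Mme was highest in the 744 cells led by Pcp4 and Msmb (353 CPM) and lowest in the 123 cells led by Tnfaip2 and Gsdmc2 (70.8 CPM). Fkbp5 was highest in the 663 cells led by Alb and Lbp (73.6 CPM) and in the Pcp4 and Msmb cells (71.0 CPM), whose levels differed by less than their intervals (70.2 to 77.2 CPM and 68.0 to 74.2 CPM), and lowest in the 584 cells led by 9530053A07Rik and C1rb, which also carried Pbsn and Tgm4 (26.9 CPM). In those Pbsn-carrying cells Tmprss2 was at its highest (119 CPM) and Tsc22d3 at its lowest (2.46 CPM). The reverse held in the 537 cells led by Sbp and Sbpl, genes of the ventral-type secretion, where Tmprss2 was at 22.0 CPM, its lowest, and Tsc22d3 at 29.1 CPM, its highest. Ndrg1 spanned a 24.3-fold range in DoubleTg, from 4.50 CPM in the Sbp cells and 8.64 CPM in the 459 cells led by Spink5 and Cxcl17 to 109 CPM in the Tnfaip2 and Gsdmc2 cells, which also had the highest Steap4 (19.9 CPM). In TripleTg the Ndrg1 range was 1.22-fold. Levels are compared between clusters within a gene, not between genes.

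Within TripleTg, the cluster led by Defb50 and Coch (865 cells), which also carried Tgm4 and C1rb, had the highest Zbtb16 (10.4 CPM) and Mme (2.59 CPM) and the lowest Tmprss2 (45.4 CPM). The cycling cluster led by Ube2c (367 cells) had the highest Fkbp5 (5.23 CPM). The clusters led by Fam213a and Tmem45b (911 cells), by Fabp4 and Tchh (570 cells) and by Lypd2 and Gm15308 (457 cells) had the highest Tmprss2, at 148, 123 and 114 CPM, with Zbtb16 at 1.24, 0.421 and 1.51 CPM. Genes of cornified and hair-type epithelium (Tchh, Cnfn, Krt73, Rptn and Lce3f) were among the 10 leading genes of the Fabp4 and Tchh cluster, and none of its 10 leading genes is a luminal marker of the list, although 8 of the 10 list markers were found in at least 50% of its cells.

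Human MET RNA, which comes from the transgene, was itself lower in TripleTg luminal-like cells, at 492 CPM in DoubleTg and 26.3 CPM in TripleTg, a log2 ratio of −4.22 (−4.27 to −4.18). Its part in the differences of the 7 genes was not tested. At 5000 UMIs, 68.0% of DoubleTg and 10.5% of TripleTg luminal-like cells held a transgene UMI, against 7.79% and 14.2% of fibroblast-like cells (median 8901 and 5676 UMIs before thinning). The probasin promoter of Cre is not expected to act in fibroblast-like cells. The TripleTg luminal-like share was below the fibroblast-like share. It was above the 2.5% of endothelial-like, 3.1% of smooth muscle-like and 1.21% of macrophage-like cells of TripleTg. Because of the fibroblast-like share, a transgene UMI was not taken to mark a transgene-expressing cell in TripleTg, and only DoubleTg luminal-like cells were compared. The cells were split on their full counts, so that the 4050 cells with a transgene UMI were also deeper, with a median of 37398.5 UMIs against 28842 in the 693 cells without, and levels were then read at 5000 UMIs. Fkbp5 was at 57.9 CPM in cells with a transgene UMI and 41.6 CPM in those without, a log2 ratio of 0.48 (0.23 to 0.74), and Steap4 was at 3.01 and 6.64 CPM, a log2 ratio of −1.14 (−1.85 to −0.38). The Tmprss2 ratio was −0.26 (−0.45 to −0.06). When cells were split on the thinned counts instead, with 3224 cells positive, the interval spanned 0 for Fkbp5, at 0.15 (−0.02 to 0.33), and for Tmprss2, at −0.10 (−0.25 to 0.05), and Steap4 was at −0.88 (−1.53 to −0.22). For the full and the thinned split, the Mme ratios were 0.21 (0.09 to 0.33) and 0.21 (0.12 to 0.30). Tsc22d3 was at −0.51 (−0.93 to −0.07) and −0.67 (−1.01 to −0.33), and Ndrg1 at 0.30 (0.03 to 0.57) and 0.65 (0.44 to 0.86). The Zbtb16 interval spanned 0 under both splits. A cell without a transgene UMI may still carry the transgene.

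Basal-like cells lie under the luminal layer, and in them 5 of the 7 genes were lower and 1 was higher in TripleTg, where 14.7% of 9079 genes were lower and 15.3% were higher. Zbtb16 was under 5 CPM in both libraries, and 4 of the other 6 genes were lower. Mme was at 16.1 CPM in DoubleTg and 0.858 CPM in TripleTg, a log2 ratio of −4.23 (−4.97 to −3.56), which was −2.65 at Leiden resolution 0.5 and −3.01 at 5000 UMIs. The DoubleTg level was 7.5% of the luminal-like level, beside 4.01% for the secretory genes Pbsn, Msmb and Sbp summed, and the part of luminal RNA in it was not tested. Fkbp5 was at 18.5 and 2.30 CPM, a log2 ratio of −3.01 (−3.46 to −2.59). Steap4, whose luminal interval spanned 0, was at 22.1 and 2.26 CPM in basal-like cells, a log2 ratio of −3.29 (−3.74 to −2.88), which was −2.58 at Leiden resolution 0.5. The DoubleTg class held clusters led by Apoe and Dcn (943 cells) and by Lgals7 and Krt5 (921 cells), with Fkbp5 at 20.2 and 17.6 CPM, and the TripleTg class held clusters led by Ifi202b and Calcb (592 cells) and by Mt4 and Ptn (266 cells), with Fkbp5 at 1.81 and 3.33 CPM. The leading genes of the Mt4 and Ptn cluster include Sprr1b and Asprv1, genes of differentiated squamous epithelium, and Lgals7 as the only basal marker. The luminal ratio of Steap4 exceeded the basal ratio by 3.20 (2.75 to 3.65).

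Tsc22d3 was at 15.5 CPM in DoubleTg and 4.15 CPM in TripleTg basal-like cells, a log2 ratio of −1.90 (−2.24 to −1.57), and Zbtb16 was at 2.95 and 1.04 CPM, a log2 ratio of −1.51 (−2.25 to −0.82); at 5000 UMIs these were −1.09 and −2.55. Tmprss2 was at 16.5 and 62.9 CPM, a log2 ratio of 1.93 (1.77 to 2.09). The TripleTg basal-like level of Tmprss2 was 67.5% of its luminal-like level, against 26.8% in DoubleTg. Ndrg1 was high in both libraries, at 268 and 207 CPM, a log2 ratio of −0.37 (−0.43 to −0.32). The basal-like level of Ndrg1 was 645% of the luminal-like level in DoubleTg and 105% in TripleTg.

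Seminal vesicle-like cells depend on androgens for their secretion and were present in both libraries, in 1 cluster of DoubleTg and 2 of TripleTg. The 420 TripleTg cells led by Crisp1 only just passed the naming limit of 1, set after the clusters were seen, with a mean log2 fold of 1.07 for the marker list, against 6.25 in the other TripleTg cluster and 5.87 in DoubleTg. Of the 7 genes, 5 were lower in TripleTg and none was higher, where 18.8% of 7937 genes were lower and 4.55% higher and the median of all genes was −0.47. Fkbp5 was at 31.2 CPM in DoubleTg and 4.93 CPM in TripleTg, a log2 ratio of −2.66 (−3.0 to −2.32); set against the all-gene median this was −2.19, and it was −1.95 at 5000 UMIs and −3.64 against the Sva and Ceacam10 cluster alone. Mme was at 15.3 and 0.896 CPM, a log2 ratio of −4.09 (−4.82 to −3.42), and 18 of the 24 TripleTg UMIs came from 1 cell. Without the cell with most Mme UMIs in each library the ratio was −5.83. The DoubleTg level was 7.14% of the luminal-like level, beside 4.59% for the secretory genes, or 1.56% without the 1 cell that held 10681 of their 16010 UMIs, and the part of luminal RNA in it was not tested. Steap4 was at 22.7 and 3.06 CPM, a log2 ratio of −2.89 (−3.31 to −2.47). These 3 genes were low in each TripleTg cluster, with Fkbp5 at 5.89 CPM in the 420 cells led by Crisp1 and at 2.5 CPM in the 168 cells led by Sva and Ceacam10.

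Tsc22d3 in seminal vesicle-like cells was at 24.0 CPM in DoubleTg and 7.73 CPM in TripleTg, a log2 ratio of −1.64 (−2.0 to −1.30), and Zbtb16 at 5.62 and 2.58 CPM, a log2 ratio of −1.12 (−1.77 to −0.45). When cells were thinned to 5000 UMIs, which left 88 of the 126 DoubleTg cells, the ratios were 0.21 and 0.10. Tmprss2 was at 24.6 and 25.1 CPM, a log2 ratio of 0.03 (−0.24 to 0.32). The TripleTg clusters differed, with 29.8 CPM in the Crisp1 cells and 13.3 CPM in the Sva and Ceacam10 cells, whose ratios alone were 0.28 and −0.89, and the ratio of the class was 0.61 with cells weighted equally. Ndrg1 was at 61.0 and 39.5 CPM, a log2 ratio of −0.63 (−0.81 to −0.44), which was −0.15 against the all-gene median and −0.03 with cells weighted equally. Against the Sva and Ceacam10 cluster alone, in which Svs genes were among the 10 leading genes, it was −1.23, past the limit, and against the Crisp1 cluster alone it was −0.44.

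**Figure D3:**
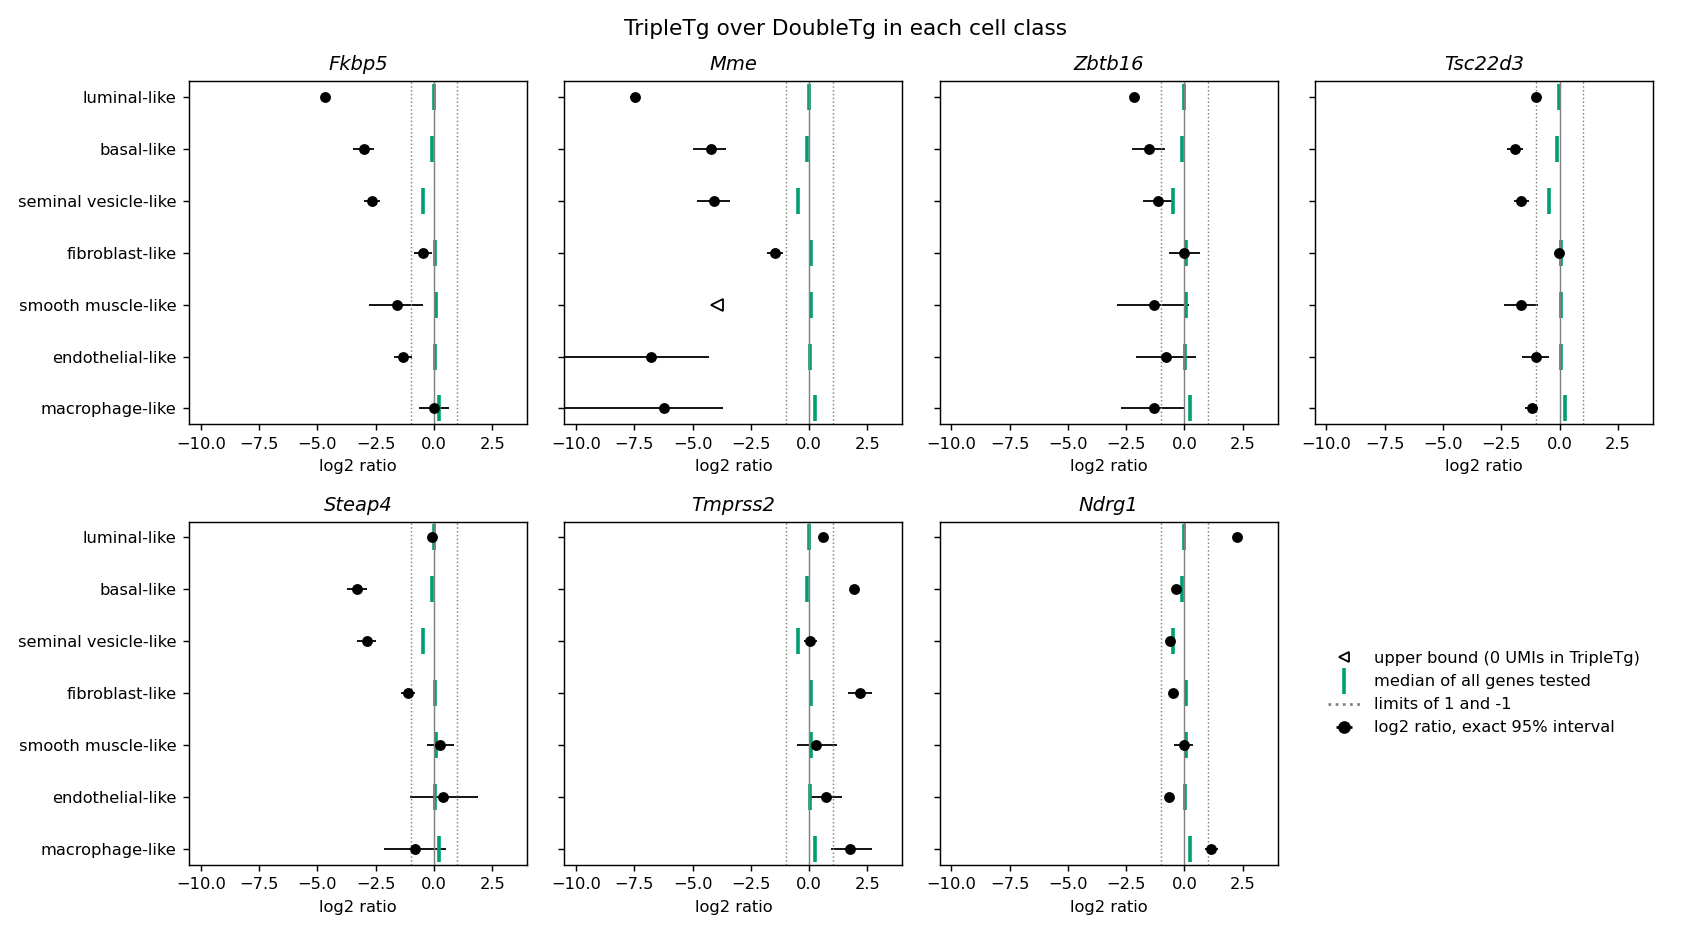
Log2 ratio of TripleTg over DoubleTg (horizontal axis) for each gene in 7 cell classes, with exact 95% intervals for counting error; green ticks are the median of all genes tested in the class and dotted lines the limits of 1 and −1. Fkbp5 lies at −4.67 in luminal-like and −0.47 in fibroblast-like cells, and Ndrg1 lies above 1 in luminal-like (2.25) and macrophage-like (1.16) cells only, the latter between 0.85 and 0.98 under 4 other settings.

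Fibroblast-like cells showed another pattern, with 2 of the 7 genes lower and 1 higher, where 5.64% of 10046 genes were lower and 11.2% higher. Fkbp5 was at 23.9 CPM in DoubleTg and 17.2 CPM in TripleTg, a log2 ratio of −0.47 (−0.85 to −0.10), which was 0.01 at 5000 UMIs and −0.83 with the 7 genes and listed genes in the clustering. The luminal ratio was lower than this by 4.20 on the log2 scale (difference −4.20, −4.60 to −3.80). Tsc22d3 was at 58.2 and 57.7 CPM, a log2 ratio of −0.01 (−0.23 to 0.20), and Zbtb16 was at 6.49 and 6.48 CPM, a log2 ratio of 0.00 (−0.68 to 0.66). The TripleTg Zbtb16 value is a mix of 9.61 CPM in the cluster led by Apod and Igfbp6 and 1.01 CPM in the cluster led by Col3a1 and Col1a2, with log2 ratios of 0.57 and −2.68 when either stood alone. Fkbp5 in TripleTg fibroblast-like cells stood at 815% of the TripleTg luminal-like level, against 44.3% in DoubleTg.

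Steap4 in fibroblast-like cells was at 51.4 CPM in DoubleTg and 23.9 CPM in TripleTg, a log2 ratio of −1.11 (−1.41 to −0.81), and Mme was at 45.6 and 16.5 CPM, a log2 ratio of −1.47 (−1.82 to −1.13). TripleTg held 2 fibroblast-like clusters. Mme was at 25.9 CPM in the 481 cells led by Apod and Igfbp6 and at 0 UMIs in the 158 cells led by Col3a1 and Col1a2, and Steap4 was at 31.2 and 11.2 CPM. Against the Apod and Igfbp6 cells alone, neither gene passed the limit, with log2 ratios of −0.81 for Mme and −0.72 for Steap4. The Apod and Igfbp6 cells thus had more Mme than any TripleTg luminal-like cluster, of which the highest was at 2.59 CPM.

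Tmprss2 was the gene that was higher in TripleTg fibroblast-like cells, at 5.80 CPM in DoubleTg and 26.1 CPM in TripleTg, a log2 ratio of 2.17 (1.66 to 2.70). Ndrg1 was at 387 and 275 CPM, a log2 ratio of −0.50 (−0.59 to −0.41). Epithelial RNA in the class was higher in TripleTg, as Tmprss2 was. The summed level of Epcam, Krt8 and Krt18 in fibroblast-like cells was 6.62% of the luminal-like level in DoubleTg and 27.2% in TripleTg, and Tmprss2 stood at 9.43% and 28.0%. The Tmprss2 ratio was 0.50 when clusters were drawn at Leiden resolution 0.5 and −1.19 when each library was lowered by its keratin share. That correction was chosen after seeing the data. Lowered in the same way, the Mme ratio was −0.96, short of the limit. The part of epithelial RNA in these ratios was not tested.

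**Figure D4:**
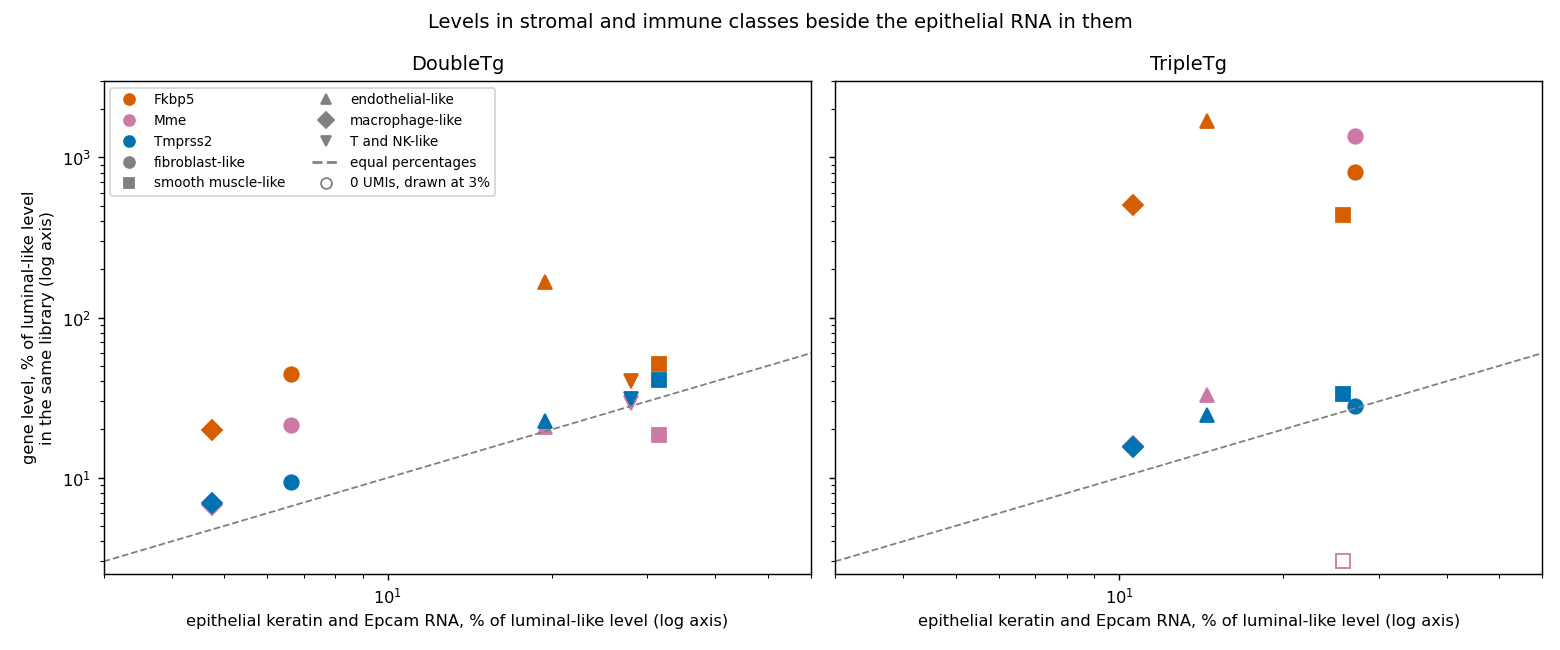
Level of Fkbp5, Mme and Tmprss2 in stromal and immune classes as a percentage of the luminal-like level of the same library (vertical, log axis) against the same percentage for summed Epcam, Krt8 and Krt18 (horizontal, log axis); the dashed line marks equal percentages and an open symbol 0 UMIs. Tmprss2 lies near the line in both libraries (9.43% against 6.62% in DoubleTg fibroblast-like cells, 28.0% against 27.2% in TripleTg), and Fkbp5 lies far above it in TripleTg (1687% in endothelial-like cells).

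The same gauge can be read for the other stromal classes. Tmprss2 in TripleTg stood at 24.6% of its luminal-like level in endothelial-like, 33.3% in smooth muscle-like and 15.5% in macrophage-like cells, beside keratin shares of 14.5%, 25.8% and 10.6%. Mme in DoubleTg stood at 20.6% in endothelial-like cells and 6.73% in macrophage-like cells, beside keratin shares of 19.4% and 4.75%, and at 21.3% in fibroblast-like cells beside 6.62%. The DoubleTg secretory genes Pbsn, Msmb and Sbp, summed, were at 6.14%, 4.15% and 5.83% of their luminal-like level in these 3 classes, the last of which was 3.12% without the 1 cell that held 13348 of the 28538 UMIs. Mme in fibroblast-like cells was thus above either gauge, whereas in endothelial-like cells it was close to the keratin share. TripleTg luminal-like cells held 7.38 CPM of the secretory genes against 67612 CPM in DoubleTg, so the secretory gauge has no use in TripleTg.

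Endothelial-like cells, 276 in DoubleTg and 240 in TripleTg, had the highest Fkbp5 of the 7 classes in both libraries. The level was 89.5 CPM in DoubleTg and 35.6 CPM in TripleTg, a log2 ratio of −1.33 (−1.70 to −0.96), and at 5000 UMIs 26.2% and 20% of cells had a Fkbp5 UMI. In this class 3 of the 7 genes were lower and none was higher, where 8.03% of 9824 genes were lower and 13.5% higher. Steap4 was under 5 CPM in both libraries, at 3.60 and 4.75 CPM, and the other 6 genes held the 3 that were lower. Mme had 98 UMIs in DoubleTg and 1 UMI in TripleTg, a log2 ratio of −6.80 (−12.12 to −4.29), and Tsc22d3 was at 32.8 and 16.2 CPM, a log2 ratio of −1.02 (−1.61 to −0.45). The Tsc22d3 ratio was −0.39 with cells weighted equally and between −0.99 and −0.92 after either gauge correction and with the 7 genes in the clustering, the Fkbp5 ratio was −0.83 at 5000 UMIs, and the Mme ratio was −1.05 after the keratin correction. Ndrg1 was at 372 and 232 CPM, a log2 ratio of −0.68 (−0.83 to −0.52), and Tmprss2 had a log2 ratio of 0.72 that was between 1.18 and 4.12 under 5 other settings. Fkbp5 differed between the libraries in endothelial-like cells by less than in luminal-like cells (difference of log2 ratios −3.34, −3.74 to −2.95).

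Smooth muscle-like cells were few, and their Fkbp5 rested on 21 UMIs in DoubleTg and 11 in TripleTg, or 27.7 and 9.23 CPM, a log2 ratio of −1.58 (−2.78 to −0.47). That ratio was −0.29 after the keratin correction. Of the 7 genes, 4 were lower and none was higher, where 15.5% of 10399 genes were lower and 16.7% higher. Tmprss2, at 25.0 and 31.1 CPM with a log2 ratio of 0.31 (−0.52 to 1.19), was higher by the limit at Leiden resolution 0.5 (1.60), with cells weighted equally (2.07) and after the secretory correction (2.97), and at 5000 UMIs it was lower (−1.03). Tsc22d3 was at 65.8 and 21.0 CPM, a log2 ratio of −1.65 (−2.40 to −0.93) that was −0.73 at Leiden resolution 0.5, and Zbtb16, with 11 and 7 UMIs, at −1.30 (−2.91 to 0.20). Mme had 30 UMIs in DoubleTg and 0 in TripleTg, which against a floor of 3 counts is a log2 ratio of at most −3.97. Of the 30 UMIs, 12 came from 1 cell, and the bound was −3.33 without it, while the ratio was −2.35 at Leiden resolution 0.5. Steap4 was at 54.0 and 64.6 CPM, a log2 ratio of 0.26 (−0.31 to 0.84). Of its 77 TripleTg UMIs, 26 came from 1 cell, and without the cell with most UMIs in each library the ratio was −0.08 (−0.73 to 0.59), while at Leiden resolution 0.5 it was −0.65. The Steap4 level was the highest of the 7 classes in both libraries, although in DoubleTg it did not differ from the fibroblast-like level beyond their intervals (38.7 to 73.2 and 46.3 to 56.9 CPM). The DoubleTg smooth muscle-like cells held secretory RNA at 61.5% of the luminal-like level, or 40.2% without the 1 cell that held 12646 of the 31559 UMIs. With the whole share removed 1 of the 7 genes was lower and 2 were higher, Fkbp5 (1.22) and Tmprss2 (2.97), and without that cell these were 1.10 and 2.85, in each case with the DoubleTg level set to the floor of 3 counts.

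Macrophage-like cells, 280 in DoubleTg and 432 in TripleTg, had Fkbp5 at 10.7 CPM in each library, a log2 ratio of −0.01 (−0.64 to 0.64), which was −1.18 at Leiden resolution 0.5. In this class 3 of the 7 genes were lower and 2 were higher, where 5.31% of 8800 genes were lower and 14.4% higher. Steap4 and Zbtb16 were under 5 CPM in both libraries, and of the other 5 genes 2 were lower and 2 higher. Mme had 47 UMIs in DoubleTg and 1 in TripleTg, a log2 ratio of −6.24 (−11.57 to −3.69). Its DoubleTg level was 6.73% of the luminal-like level, beside 4.15% for the secretory genes and 4.75% for the keratin gauge. The part of luminal RNA in it was not tested. Tsc22d3, an anti-inflammatory gene in myeloid cells, was at 87.6 and 38.3 CPM, a log2 ratio of −1.20 (−1.46 to −0.93), and Ndrg1 was at 40.5 and 90.1 CPM, a log2 ratio of 1.16 (0.87 to 1.44). Ndrg1 was at 0.93 with TMM factors, 0.97 at Leiden resolution 2, 0.98 without the highest doublet scores and 0.85 after the keratin correction, Tmprss2, at 1.75, was at 0.96 at Leiden resolution 0.5, and Zbtb16, at −1.32, was at −0.64 at 5000 UMIs. T and NK-like cells of DoubleTg (438 cells) had the highest Tsc22d3 (153 CPM) and Zbtb16 (39.9 CPM) among its named classes, while the matching TripleTg cluster was mixed and is not compared.

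Counted per cell at 5000 UMIs, 17.7% of DoubleTg luminal-like cells (16.6 to 18.8%) and 27.5% of TripleTg luminal-like cells (26.2 to 28.8%) had no UMI of any of the 7 genes. For Fkbp5, Mme and Zbtb16, picked because they were the lower members of this class, 31.5% of DoubleTg luminal-like cells (30.2 to 32.9%) had no UMI of the 3, and 96.6% of TripleTg luminal-like cells (96.0 to 97.1%) had none. The shares for the 3 genes in basal-like cells were 83.7% and 97.7%, and in fibroblast-like cells 74.1% (70.2 to 77.7%) and 79.9% (75.4 to 83.9%). The thinning left out 199 DoubleTg and 149 TripleTg luminal-like cells, and 160 and 281 fibroblast-like cells. Free RNA can give UMIs in cells that do not make a gene, and macrophage-like cells (median 10297.5 and 10051 UMIs before thinning, against 35258.5 and 25654 in luminal-like cells) had a Mme UMI in 3.77% of DoubleTg and 0.243% of TripleTg cells (0.00614 to 1.34%). The TripleTg luminal-like share of Mme, 0.455%, lay inside that interval, which rests on 1 macrophage-like cell with a UMI. The part of free RNA in it was not tested. The same comparison cannot be made for Fkbp5, because its level in TripleTg macrophage-like cells was 505% of the luminal-like level.

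The wider pathway was read from lists of genes chosen from general knowledge. Of 29 androgen response genes known from human prostate cell lines, 27 passed 5 CPM in luminal-like cells, and 7 were lower, 5 were higher and 15 were neither, with a median log2 ratio of 0.22, beside the 12.7% lower and 11.8% higher of all genes in that class. The lowest were Azgp1, which encodes a secreted zinc-binding glycoprotein, at 285 CPM in DoubleTg and 2.37 CPM in TripleTg (−6.91), and Spdef, a luminal transcription factor, at 12.1 and 0.261 CPM (−5.54). The highest was Camkk2, a calcium-dependent kinase, at 1.98 and 5.67 CPM (1.52). In fibroblast-like cells, where 5.64% of all genes were lower and 11.2% higher, 1 of 25 genes of this list was lower and none was higher. In seminal vesicle-like cells 7 of 23 were lower and none higher, beside 18.8% and 4.55% of all genes, and in smooth muscle-like cells 9 of 28 were lower and 3 higher, beside 15.5% and 16.7%. Like the 7 genes, the list was split in luminal-like cells.

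Of 10 glucocorticoid-responsive genes, 7 passed the filter in luminal-like cells, and 2 were lower and none was higher, beside 12.7% and 11.8% of all genes. The metallothioneins Mt1, at 5007 and 449 CPM (−3.48), and Mt2, at 1139 and 125 CPM (−3.19), were the lowest, and Dusp1, a phosphatase, was the highest, at 126 and 222 CPM (0.81). In basal-like cells, where 14.7% of all genes were lower, 4 of 8 genes were lower, and in endothelial-like cells, where 8.03% were, 5 of 8 were lower with a median of −1.22. Among 13 related receptors, chaperones and coactivators, 12 passed, with 2 lower and 2 higher in luminal-like cells, beside the same shares of all genes. Nr3c1, the glucocorticoid receptor, was the highest of these, at 13.6 CPM in DoubleTg and 58.0 CPM in TripleTg (2.09), while Nr3c2, the mineralocorticoid receptor, at 6.1 and 0.795 CPM (−2.94), and the coactivator Ncoa4, at 8.64 and 3.50 CPM (−1.30), were the lowest.

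Of 9 steroid enzymes, 3 passed 5 CPM in luminal-like cells and none passed the limit, from Hsd17b11 (−0.29) and Srd5a3 (0.10) to Hsd17b4 (0.17). Of 12 paralogues of the 7 genes, 9 passed, with 3 lower and none higher, beside 12.7% lower and 11.8% higher of all genes. Tmprss4, at 11.8 and 0.466 CPM (−4.67), was lower where Tmprss2 was higher by less than the limit. Steap1, at 6.28 and 1.95 CPM (−1.69), was lower where Steap4 was not, and Tsc22d1, at 50.9 and 76.5 CPM (0.59), was the highest. Fkbp4, the other HSP90 co-chaperone of this family, was at 103 and 128 CPM, a log2 ratio of 0.31, against −4.67 for Fkbp5; it was named after its value was seen.

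**Figure D5:**
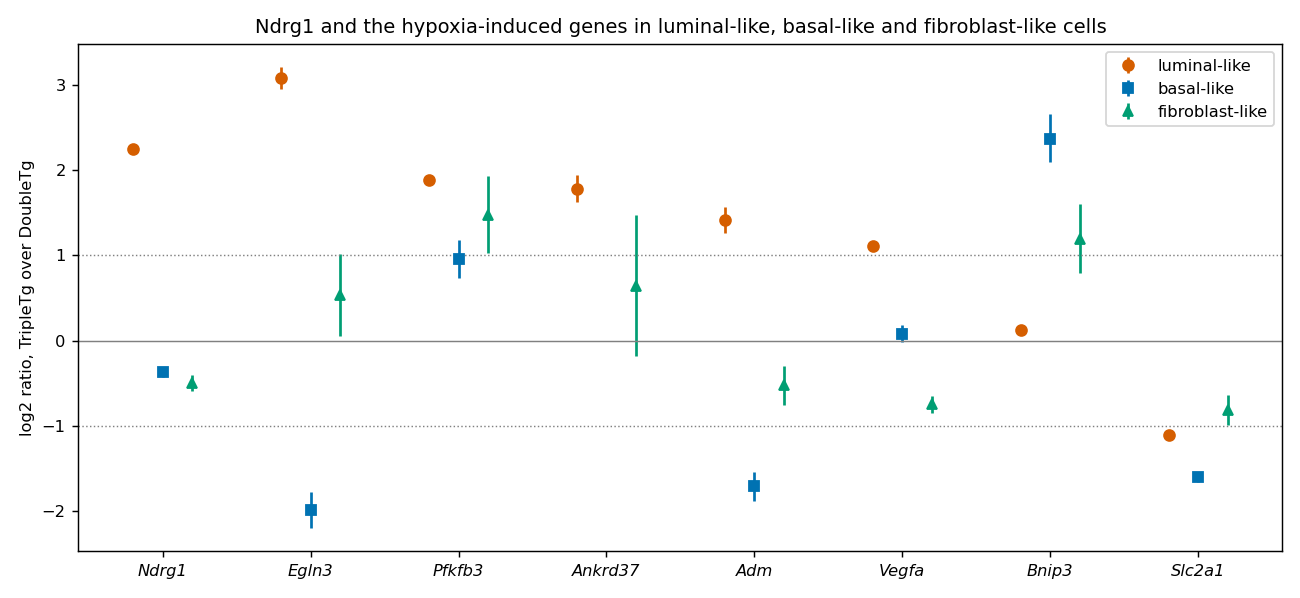
Log2 ratio of TripleTg over DoubleTg (vertical axis) for Ndrg1 and 7 hypoxia-induced genes in luminal-like (circles), basal-like (squares) and fibroblast-like (triangles) cells, with exact 95% intervals for counting error. In luminal-like cells Ndrg1 (2.25) and 5 of the 7 listed genes lie above 1, while in basal-like cells Ndrg1 (−0.37) lies below 0.

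Hypoxia-induced genes were listed because Ndrg1 belongs to that response too. Of 8 such genes, 7 passed 5 CPM in luminal-like cells, and 5 were higher and 1 was lower, with a median log2 ratio of 1.41, beside 11.8% higher and 12.7% lower of all genes. Egln3, an oxygen-sensing prolyl hydroxylase, was the highest, at 2.82 CPM in DoubleTg and 23.7 CPM in TripleTg (3.07). The lowest were Slc2a1, a glucose transporter, at 112 and 52.0 CPM (−1.10), and Bnip3, a mitophagy receptor, at 33.1 and 36.1 CPM (0.12). In basal-like cells 1 of 6 listed genes was higher and 3 were lower, beside 15.3% and 14.7% of all genes. Egln3 there was at 40.5 and 10.2 CPM (−1.98). In fibroblast-like cells 2 of 7 were higher, beside 11.2%. In macrophage-like cells, with Ndrg1 at 1.16, 1 of 4 was higher, beside 14.4%, and the list median was −0.10. In smooth muscle-like cells, with Ndrg1 at −0.03, 3 of 7 were higher and 1 was lower, beside 16.7% and 15.5%. In seminal vesicle-like and endothelial-like cells, with Ndrg1 at −0.63 and −0.68, 1 of 5 and 1 of 7 were higher, beside 4.55% and 13.5%. Any part of hypoxia in the Ndrg1 level was not tested.

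Genes with the pattern closest to each member were found by Pearson correlation of log2(CPM + 1) over 34 profiles, the named classes and luminal-like clusters of both libraries, among 9618 genes. The profiles share libraries, and r is given as a description. Fkbp5 was closest to Fam174b (r = 0.90), Tox3 and Dach1, Mme to Azgp1 (r = 0.95), Msmb and 5430419D17Rik, Zbtb16 to Prkca (r = 0.89), Klhdc1 and Akr1b10, Tmprss2 to Krt23 (r = 0.94), Rab25 and Rnf128, Steap4 to Sgce (r = 0.89), Arhgap35 and Efemp2, Tsc22d3 to Chst12 (r = 0.82), Lag3 and H2-Q4, and Ndrg1 to Map4 (r = 0.86) and Tmod3. Among the members, Fkbp5 and Mme (r = 0.83), Mme and Zbtb16 (r = 0.78) and Fkbp5 and Zbtb16 (r = 0.76) were alike, Tmprss2 and Tsc22d3 ran opposite (r = −0.74), and Steap4 was close to none of them, its highest r being 0.41 with Tsc22d3.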

How the data were processed

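The 7 genes and the gene lists were chosen with earlier results of these data known. The authors deposited counts of UMIs per gene and cell, made with Cell Ranger (6.0.2 in the submitters' processing notes and methods; the DoubleTg file header names 6.1.1) on mm10 with the human transgenes added. The filter on genes and mitochondrial UMIs left 10598 of 12072 deposited DoubleTg barcodes, more than the study lists for that library, and all 9492 TripleTg barcodes. Per library, cells were clustered in scanpy 1.11.5 (2000 variable genes without the 7 genes and listed genes, 20 components, 15 neighbours, Leiden resolution 1) and named from markers, with thresholds set after the clusters were seen. Clusters with a median depth under 0.1 of the library median, and those under 0.33 without a marker of the name among their top 10 genes, stayed unnamed. Doublets were limited by the 7000-gene filter; Scrublet called 266 DoubleTg and 0 TripleTg cells. UMIs were summed per class and scaled to CPM. With 1 library per genotype no test was run. Genes named from a list are the highest and the 2 lowest luminal-like ratios, and for likeness the 3 closest genes, of which 1 is not reported here. Intervals of levels, shares and ratios are exact (Poisson, Clopper-Pearson). Those of differences in log2 ratio between classes are normal approximations. All cover counting error only. The ratio and its interval were tested on simulated counts.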

Additional observations from a re-analysis of the deposited data

Results flagged for a closer look

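Ndrg1 was higher in TripleTg luminal-like cells (log2 ratio 2.25) and had ratios below 0 that did not pass the limit of 1 in basal-like (−0.37), seminal vesicle-like (−0.63), fibroblast-like (−0.50) and endothelial-like cells (−0.68). The seminal vesicle-like value was −0.15 against the median of all genes, −0.13 with TMM factors and −0.03 with cells weighted equally, but −1.23, past the limit, against the TripleTg cluster led by Sva and Ceacam10 alone. With 1 library per genotype the difference between the classes was not tested.

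A cluster of 437 DoubleTg cells that was left unnamed for its low depth (median 2042 UMIs) and is led by Gm26917 and Lars2 held more Fkbp5 (147 CPM), Tmprss2 (148 CPM) and Zbtb16 (138 CPM) than any named class or luminal-like cluster of that library, where the highest values were 89.5, 119 and 39.9 CPM. The matching TripleTg cluster, of 383 cells led by Gm26917 and Gm26870, had Fkbp5 at 7.87 CPM, Tmprss2 at 161 CPM and Zbtb16 at 26.9 CPM. These cells entered no comparison.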

How the results depend on the processing

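Across 431 recomputed single-gene ratios, 379 stayed on the same side of the limits and 52 did not, and 36 changed sign. No paired analysis was possible because each genotype has 1 library. In luminal-like cells the count of 3 lower genes was 4 with TMM factors and in cells with a human MET UMI and 3 under the other settings run, and Fkbp5 ranged from −4.86 to −4.58 and Mme from −7.54 to −6.94. The median of the 7 genes there was −0.87 at 5000 UMIs per cell, −1.40 in cells with a human MET UMI and −0.63 with cells weighted equally. Cells with a human MET UMI were picked on full counts. In TripleTg these were 34.5% of luminal-like and 16.1% of fibroblast-like cells (median 25654 and 5676 UMIs). At 5000 UMIs the shares were 10.5% and 14.2%. The basal-like count of 5 held under each setting run. The seminal vesicle-like count of 5 was 3 at 5000 UMIs, where Zbtb16 (0.10) and Tsc22d3 (0.21) changed sign; it was 4 with TMM factors, where Zbtb16 was −0.63, and 4 with cells weighted equally, where Zbtb16 changed sign (0.20). The fibroblast-like count of 2 was 1 at Leiden resolution 0.5, with the 7 genes and listed genes in the clustering, without the 5% highest doublet scores and with cells weighted equally, 0 against the Apod and Igfbp6 cluster alone and 3 against the Col3a1 and Col1a2 cluster alone (Mme −4.90, Steap4 −2.20, Zbtb16 −2.68). After the keratin correction Tmprss2 there was −1.19 and Mme −0.96, and Fkbp5 was 0.01 at 5000 UMIs. The smooth muscle-like count of 4 was 2 at resolution 0.5, 1 after the secretory correction, where Fkbp5 (1.22) and Zbtb16 (0.57) changed sign, and 1 after the keratin correction; Zbtb16 was 0.45 with cells weighted equally, and Tmprss2 passed 1 under 3 settings (1.60 to 2.97). The causes were not tested. TMM factors moved seminal vesicle-like ratios by 0.50. With a filter of 1 CPM, 14.6% of luminal-like genes were lower and 14.7% higher. The alternative without Scrublet doublets was not run because none was called in TripleTg. The doublet-score, equal-weight, keratin, single-cluster, single-cell and thinned transgene-split alternatives, the secretory correction without 1 cell included, were chosen after seeing the data. Genes with under 30 UMIs in a class have wide counting intervals.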
